A study of Mus musculus with 8 samples.

Results

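Early erythroid progenitors were followed by single-cell RNA-seq in mouse bone marrow after a single dose of IFNα, a type I interferon. All 16 mice were wildtype and 12 to 14 weeks old. Treated mice were injected under the skin with recombinant mouse IFNα, 50000 IU for every 20 g of body weight, and analysed 3, 24 or 72 h later, with 4 mice at each time point, and the 4 control mice received PBS. The cells of each mouse carried their own hashtag antibody, the 4 mice of a group were pooled and sorted as lineage-negative, c-Kit+ (LK) cells to which stem cells (CD34- LK SLAM cells) were added, and each group formed 1 library. Library and time point therefore cannot be told apart. The added stem cells also mean that a share of the sorted cells is not a share of marrow.

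Of 13310 cell barcodes, 10046 carried the hashtag of 1 mouse and passed the quality limits (at least 700 genes and at most 5% mitochondrial counts). Early erythroid cells were the 191 of them with at least 1 unique molecular identifier (UMI, a count of 1 captured mRNA molecule) of Klf1, Car1 and Ermap and with fewer than 2 of the later genes Rhd, Cldn13, Ctse and Fam132a detected. The control library held 37 such cells, and the libraries of 3, 24 and 72 h held 27, 62 and 65. The members were thus chosen by the measured counts of 7 genes, and levels of these genes are given as a description only. The control mice gave 8, 14, 14 and 1 cells, the 3 h mice 3, 6, 11 and 7, the 24 h mice 11, 22, 9 and 20, and the 72 h mice 23, 19, 8 and 15. The median cell held 14572 UMIs in the control, and 15268, 19863 and 11961 UMIs at 3, 24 and 72 h. Summed over the early erythroid cells of each mouse with at least 3 of them, the totals ran from 42307 UMIs (mouse 1 at 3 h) to 508883 UMIs (mouse 2 at 24 h). A total of 98 barcodes occurred in more than 1 library, 3 of them among the kept cells and 0 among the early erythroid cells.

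Erythropoiesis runs from stem cells through progenitors that give up other fates, switch from the transcription factor GATA2 to GATA1, and then, with KLF1 and erythropoietin, build up heme, iron uptake, globins and the red cell membrane. Type I interferon binds the receptor IFNAR on nearly every cell, and kinases at the receptor then activate transcription factors that enter the nucleus and bind interferon-stimulated response elements. The genes switched on there encode antiviral effectors, sensors of foreign nucleic acid, GTPases that attack intracellular microbes, antigen presentation and the pathway's own inhibitors.

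The markers placed the cells before hemoglobin production. Averaged over 15 mice with at least 3 cells, early erythroid cells held 181 ± 36.5 (SD) UMIs per 1000000 (CPM) of Klf1, which encodes an erythroid transcription factor, and 170 ± 55.1 CPM of the water channel gene Aqp1. The remaining kept cells outside the erythroid gates held 13.1 CPM of Klf1 and 11.6 CPM of Aqp1 (16 mice). Gata1 was at 118 ± 36.2 CPM against 126 CPM in late erythroid cells, which are the 588 cells with the same 3 genes and at least 2 of the later ones. Gata2 was at 156 ± 66.3 CPM in early and 48.8 CPM in late erythroid cells, and Apoe at 1670 and 509 CPM. Genes of hemoglobin production were nearly absent: Alas2, the erythroid heme synthesis enzyme, had no UMI, and the globin gene Hba-a1 was at 3.17 CPM against 150 CPM in late erythroid cells. The stem cell gene Hlf was at 4.47 CPM, against 68.6 CPM in the cells outside the erythroid gates. These differences describe the choice of the cells and were not tested.

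Markers of other lineages were low. The megakaryocyte list summed to 40.5 CPM with Ppbp at 0, and Pf4 was at 6.36 CPM against 2434 CPM in megakaryocyte-gated cells (1461 cells with Pf4 and Itga2b). The neutrophil and monocyte list summed to 184, 444 and 286 CPM in control mice and to 47.3, 93.9, 122 and 109 CPM at 3 h, against 13380 CPM in the cells outside the erythroid gates, and S100a9 was at 0. At 3 h all 4 mice were below all 3 controls for these granulocyte markers, and their part in the results below was not tested. Lymphoid markers had 5 of 8 genes at 0 and island macrophage markers 7 of 8. The cells are an early slice of a continuum: 52 had none of the later genes and 139 had 1 (mostly Fam132a, detected in 91 cells, or Ctse, in 41). Just inside the limit, cells with 1 later gene held 164 CPM of Klf1, 83.1 CPM of Fam132a and 148 CPM of Gata2, and the 167 cells just outside it, with 2 later genes, held 182, 137 and 122 CPM. Depth moves with this gate, since the median was 12980.5 UMIs in cells without a later gene and 44922 UMIs in those with all 4. Gate results are therefore also given after each cell was thinned to 8000 UMIs.

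Changes after IFNα were measured on UMIs summed per mouse. A gene was called when its Benjamini-Hochberg adjusted p in edgeR's quasi-likelihood test was under 0.05 and its log2 fold change against control over 1 in size. Mice with at least 10 early erythroid cells left 2 control mice, 1 mouse at 3 h, 3 at 24 h and 3 at 72 h (4497 genes tested, below called the 10-cell fit). The lone 3 h mouse is there assumed to vary as mice of the other groups do. Mice with at least 3 cells left 3 control mice and 4 at each time point (3239 genes, the 3-cell fit), and both fits are given. CPM values of single genes per mouse are scaled with TMM factors and are listed in the order control mice 1 to 3 and treated mice 1 to 4. CPM summed over a list, and group means ± SD in CPM, are without TMM factors.

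At 3 h interferon genes rose together, and other genes rose beside them. In the 10-cell fit 126 genes were higher (2.8% of those tested) and 10 were lower (0.222%). In the 3-cell fit 141 were higher (4.35%) and 16 lower (0.494%). Of the 77 tested genes of the interferon lists, 49 rose and 0 fell, with a median log2 fold change of 2.97 beside −0.05 over all genes tested. In the 3-cell fit 54 of 70 rose, with a median of 3.00.

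Antiviral effectors were the largest group among them, with 27 of 33 tested genes higher and a median log2 fold change of 3.32 (27 of 30 and 3.16 in the 3-cell fit). Isg15, a ubiquitin-like protein that is attached to other proteins, had 44.0, 155 and 17.8 CPM in control mice and 3325, 3188, 1878 and 2449 CPM at 3 h. The log2 fold change of Isg15 was 4.32 ± 0.40 (SE, adjusted p = 4e-11), or 5.06 ± 0.34 in the 3-cell fit (adjusted p = 1.2e-16). In the 10-cell fit it was 6.71 without control mouse 2, which held the 155 CPM, and 3.62 without control mouse 3. Ifit1, which binds foreign RNA caps, had 6.28, 0 and 0 CPM in control mice and 1126, 607, 530 and 575 CPM at 3 h. A total of 1 control UMI of Ifit1 stood against 201 at 3 h, a 338-fold ratio with a 95% counting interval of 60.1 to 13434. Rsad2 (viperin, an enzyme that makes a chain-terminating nucleotide) went from 6.28, 0 and 0 CPM to 497, 469, 282 and 477 CPM. For these genes every 3 h mouse lay far above every control mouse. Of the 3239 genes tested in the 3-cell fit, 275 had every 3 h mouse above every control.

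Transmembrane restriction factors were already expressed in control mice. Ifitm3, which blocks viral entry at endosomes, was at 289, 311 and 184 CPM in control mice and at 2723, 3381, 3031 and 4438 CPM at 3 h (log2 fold change 3.59 ± 0.20, adjusted p = 2.5e-17). Bst2 (tetherin), which holds budding virus at the membrane, was at 232, 132 and 160 CPM and then at 1545, 1725, 1415 and 1430 CPM (3.29 ± 0.24, adjusted p = 8e-14). The neighbouring family members behaved otherwise. Ifitm2 was at 854, 998 and 981 CPM in controls and 1073, 1366, 952 and 1332 CPM at 3 h (log2 fold change −0.05 and 0.30 in the 10-cell and 3-cell fits, adjusted p = 0.95 and 0.27). Ifitm1 spread from 144 to 1116 CPM among control mice and from 138 to 1759 CPM at 3 h, so the groups overlapped throughout.

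**Figure D1:**
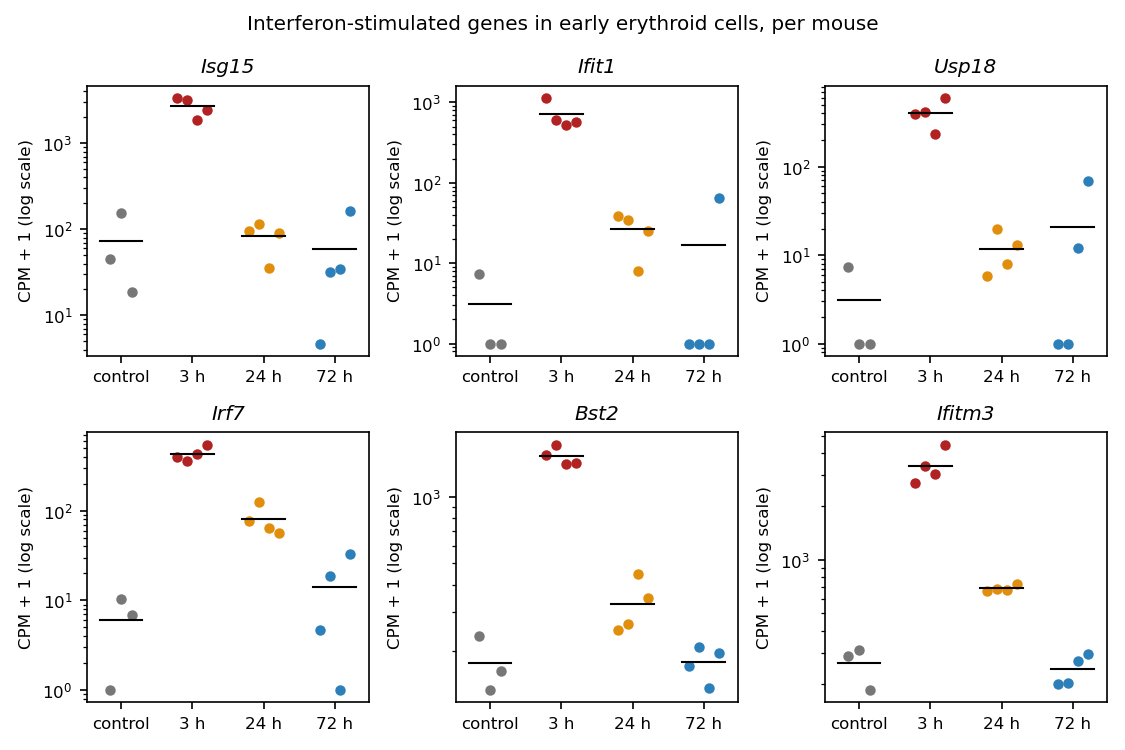
Levels of 6 interferon-induced genes in early erythroid cells of each mouse, as CPM + 1 on a log axis, for control mice and for the 3, 24 and 72 h groups. Points are mice and lines are group means. Isg15 and Ifit1 are high in all 4 mice at 3 h and near control by 72 h, apart from 1 mouse with Ifit1 at 63.2 CPM, while Ifitm3 at 24 h still lies above every control mouse.

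Interferon-stimulated response elements were searched for in the promoters. The windows below show a match in 6 of the induced genes described here, and are printed because factors activated by type I interferon bind such letters. The search took the core of the element, GAAA, then any 2 bases, then GAAA, on either strand within 250 bases before the RefSeq start (GRCm38.p6). Each window is 40 bases on the gene's strand, 5′ to 3′, and the capitals mark the match.
Ifit1, chr19:34640770-34640809, plus strand: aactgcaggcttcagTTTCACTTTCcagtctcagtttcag
Rsad2, chr12:26456548-26456587, minus strand: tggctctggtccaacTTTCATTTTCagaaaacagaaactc
Cxcl10, chr5:92349078-92349117, minus strand: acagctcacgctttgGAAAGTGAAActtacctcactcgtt
Gbp3, chr3:142559984-142560023, plus strand: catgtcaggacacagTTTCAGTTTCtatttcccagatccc
Isg15, chr4:156200866-156200905, minus strand: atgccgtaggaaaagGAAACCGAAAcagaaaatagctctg
Bst2, chr8:71537578-71537617, minus strand: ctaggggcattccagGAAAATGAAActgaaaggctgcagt

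The match shown began 104 bases before the start for Ifit1, 120 for Rsad2, 213 for Cxcl10, 45 for Gbp3, 72 for Isg15 and 130 for Bst2. Ifit1, Gbp3 and Bst2 each held 2 matches and Isg15 held 3 that overlap, of which 1 each is shown. Of the 126 genes higher at 3 h, 100 had a promoter entry, and 24 of these (24%) held the element, beside 108 of the 3521 tested genes with an entry (3.07%) and 828 of 27025 promoters of the whole table (3.06%). Of the genes that fell, 1 of 9 held it. The letters were not found in these windows of Irf7, Ifi44, Ifitm3, Plac8, H2-K1, Gata2 or Adgrg1. A match is a stretch of letters and no measurement of binding.

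Sensors of nucleic acid rose as a group, 6 of 7 tested with a median log2 fold change of 3.89 (7 of 7 and 4.10 in the 3-cell fit). Zbp1, which recognises Z-form nucleic acids and can start cell death, was at 18.8, 4.71 and 0 CPM in controls and at 445, 221, 288 and 378 CPM at 3 h (5.29 ± 0.53 in the 3-cell fit, adjusted p = 3.6e-11). Mndal, of the same interferon-inducible 200 family as Ifi203, was at 62.8, 33 and 23.8 CPM and at 602, 773, 597 and 773 CPM (4.35 ± 0.39, adjusted p = 2.5e-11). All 7 tested guanylate-binding and immunity-related GTPases were higher in both fits (median 4.02 and 3.33). Gbp3 had no UMI in the control mice and 236, 96.6, 121 and 115 CPM at 3 h, which makes it at least 23-fold higher against a floor of 3 UMIs over the control group. Iigp1, which disrupts pathogen vacuoles, was at 44.0, 0 and 0 CPM and then at 576, 304, 355 and 592 CPM (4.96 ± 0.48 in the 3-cell fit, adjusted p = 1.6e-11). The counts of Ifi203, Ifi204 and Mndal may be shared among close paralogs, as may those of the GTPases.

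Of the receptors, kinases and factors of the pathway 3 of 6 tested genes were higher and 5 of 6 had a positive value, with a median log2 fold change of 1.57 (3 of 5, 4 of 5 and 2.20 in the 3-cell fit). Irf7, a factor that amplifies interferon production, had 0, 9.42 and 5.94 CPM and then 393, 359, 423 and 542 CPM, a 76.9-fold ratio with a counting interval of 25.8 to 377 (3 UMIs against 137). Irf2, which competes with IRF1 on the same elements, rose by a log2 fold change of 2.05 ± 0.53 (adjusted p = 0.014, and 0.093 without control mouse 2). Jak1, the receptor's kinase, was at 94.2, 118 and 149 CPM and at 105, 55.2, 67.1 and 164 CPM (adjusted p = 0.38). Of the feedback inhibitors 1 of 4 tested was higher: Usp18, which displaces JAK1 from the receptor, went from 6.28, 0 and 0 CPM to 393, 414, 235 and 592 CPM. The phosphatase gene Ptpn1 did not pass the test (0.42 ± 0.55, adjusted p = 0.82).

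Antigen presentation moved less, with 5 of 20 tested genes called and a median log2 fold change of 0.88 (9 of 18 and 0.99 in the 3-cell fit). The called genes included immunoproteasome subunits and their activator. Psmb8 was at 396, 424 and 416 CPM in controls and 864, 842, 872 and 1167 CPM at 3 h (1.06 ± 0.21, adjusted p = 0.00054), and Psme1 rose by 1.13 ± 0.22 (adjusted p = 0.00052). Tapbp, which loads peptides onto class I molecules, rose from 31.4, 37.7 and 59.4 CPM to 236, 152, 215 and 181 CPM. The class I heavy chain H2-D1 was at 967, 1050 and 1171 CPM and then at 1414, 1159, 1281 and 1693 CPM at 3 h, without passing the test (adjusted p = 0.64 and 0.083).

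The response was seen cell by cell. With every cell thinned to 8000 UMIs, the 96 interferon genes used for this count gave a median of 24 UMIs per control cell (35 cells, range 11 to 71) and 157 per cell at 3 h (23 cells, range 104 to 268), so the cells of these groups did not overlap. All 23 of 23 cells at 3 h held a UMI of Isg15 (100%, exact 95% interval 85.2 to 100), and the same held for Ifit1, Irf7 and Bst2. Usp18 and Rsad2 were found in 20 of 23, Cxcl10 in 5 and Ifit3 in 1. Before thinning 27 of 27 cells at 3 h held Isg15, Irf7 and Bst2, and 26 held Ifit1. In the control, 10 of 35 cells held Isg15 (28.6%), 2 held Irf7 and 0 held Ifit1, and before thinning 1 of 37 control cells held Ifit1. These are shares of cells with a UMI at this depth, not of cells that express the gene. Mpo, a gene of another lineage (granulocytes), was detected in 13 of 35 control cells and 6 of 23 cells at 3 h, and free RNA was not told apart from low expression. At 24 h the median was 35 UMIs (62 cells, 14 to 129) and at 72 h 22 UMIs (56 cells, 8 to 149). Thinning left out 2, 4, 0 and 9 cells of the control, 3 h, 24 h and 72 h libraries. The intervals cover counting error only, and cells of a mouse are not replicates.

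**Figure D2:**
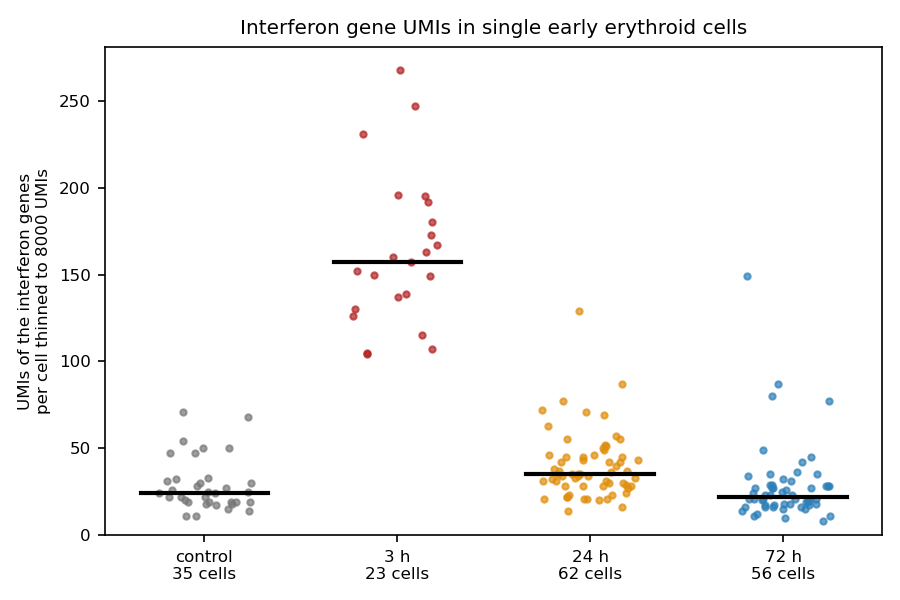
UMIs of the 96 interferon genes per early erythroid cell after thinning to 8000 UMIs, at each time point. Points are cells and lines are medians. Cells at 3 h lie between 104 and 268 UMIs, above the control range of 11 to 71, and the medians at 24 h and 72 h are 35 and 22.

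Outside the interferon lists 77 further genes rose at 3 h in the 10-cell fit. Some are also known as interferon-inducible, such as Rnf213, a large ubiquitin ligase, at 56.5, 9.42 and 23.8 CPM in control mice and 288, 331, 322 and 477 CPM at 3 h (4.32 ± 0.48, adjusted p = 6.5e-09). Plac8, a small cysteine-rich protein of myeloid and progenitor cells, was at 798, 1106 and 1403 CPM in control mice and at 3953, 2581, 2770 and 4915 CPM at 3 h (1.16 ± 0.16 and 1.65 ± 0.18, adjusted p = 1.5e-06 and 3e-10). Cxcl10, a chemokine that draws T cells, had no control UMI and was at 26.2, 13.8, 134 and 0 CPM at 3 h (22 UMIs in all, at least 12.3-fold). This bound rested mostly on mouse 3, 1 treated mouse had none, and Cxcl10 was not among the genes called in the 3-cell fit. Of the S phase list 2 of 27 tested genes were higher. The helicase gene Mcm7 was at 138, 146 and 137 CPM and at 183, 221, 382 and 279 CPM (1.43 ± 0.29 and 1.07 ± 0.24, adjusted p = 0.0009 and 0.00098). Tyms, the other one, rested on mouse 3, with 52.4, 0, 228 and 32.9 CPM over the 4 mice (3-cell fit 0.14, adjusted p = 0.92). Ccnd2, a cyclin of G1 entry, was at 201, 254 and 351 CPM in controls and 942, 428, 503 and 575 CPM at 3 h and was called in the 3-cell fit (1.07 ± 0.21, adjusted p = 0.00017), not in the 10-cell fit (0.76 ± 0.26, adjusted p = 0.11), and was under the fold limit without control mouse 1 (0.90) or 3 h mouse 1 (0.91).

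Many of these 77 genes moved in the whole library: 57 were also called higher when all kept cells of each mouse were summed, and 74 had the same sign there. Over all genes tested in all kept cells, 629 of 12042 were called higher at 3 h. The 77 included ribosomal protein genes, and the 3-cell fit called 11 of 73 tested ones higher, beside 4.35% of all genes tested there. Rpl35, a protein of the large ribosomal subunit, was at 754, 739 and 909 CPM in controls, at 4084, 4609, 4621 and 4422 CPM at 3 h, at 2070, 1881, 1870 and 2107 CPM at 24 h and at 3235, 3304, 3560 and 3374 CPM at 72 h. The mice of each group agreed closely and no 2 groups overlapped. The median over all tested ribosomal protein genes was only 0.13 (log2) at 3 h, beside 0.20 in all kept cells. The 77 genes had short transcripts, with a median longest transcript of 1773 bases against 2913.5 over all tested genes. What part the library had in these changes was not tested.

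Falls were fewer, and only 2 were called in both fits. Gata2, which maintains stem and early progenitor cells, lies on chromosome 6 at 88193891 to 88207032 (GRCm38). It was at 119, 264 and 321 CPM in control mice, at 105, 96.6, 73.8 and 181 CPM at 3 h, at 195, 153, 105 and 144 CPM at 24 h and at 203, 141, 257 and 226 CPM at 72 h. The log2 fold change of Gata2 at 3 h was −1.96 ± 0.41 (adjusted p = 0.0012) in the 10-cell fit and −1.19 ± 0.32 (adjusted p = 0.011) in the 3-cell fit. Control mouse 1, the lowest control, had 8 cells and is not in the 10-cell fit, and in the 3-cell fit the groups overlapped, since 3 h mouse 4 lay above it. The fall depended on the gate: with any number of later genes it was −0.45 (adjusted p = 0.36), and with cells chosen by 4 other erythroid genes −0.15 (1988 cells, 182 of them early erythroid). With the early gate applied after thinning (212 cells, of which 111 were early and 101 late before it) it was −1.83. That fit held 3 control mice and 1 mouse at 3 h, while those with any number of later genes and with 4 other genes held 4 mice at 3 h. In the 3-cell fit Gata2 was not called without control mouse 2 (−1.08), control mouse 3 (−0.93) or 3 h mouse 3 (−0.91), with adjusted p = 0.071, 0.13 and 0.18. Adgrg1, an adhesion receptor of stem and progenitor cells, was at 69.1, 104 and 149 CPM and at 52.4, 27.6, 26.8 and 49.3 CPM at 3 h, with no overlap (−2.18 ± 0.62 and −1.62 ± 0.44, adjusted p = 0.033 and 0.010). With any number of later genes the Adgrg1 value was −0.62 (adjusted p = 0.12), and without control mouse 3 it was not called in either fit (−1.90 and −1.34, adjusted p = 0.16 and 0.097), nor in the 3-cell fit without 3 h mouse 3 (−1.40, adjusted p = 0.13).

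Most of the other falls in the 10-cell fit rested on the lone 3 h mouse. Golm1 was at 0 in that mouse but at 78.5, 41.4 and 115 CPM in the other 3, above or within the control values of 37.7, 75.3 and 47.6 CPM. Mxi1, Nat6, Cpne2, Pnrc1 and Gm15915 were likewise not called in the 3-cell fit or not tested there. None of the 10 was called when all kept cells were summed, where 202 of 12042 tested genes were called lower. In the 3-cell fit Csrp3, a LIM protein gene of the stem and early progenitor list, was at 69.1, 155 and 226 CPM in controls and at 0, 0, 60.4 and 132 CPM at 3 h (−1.51, adjusted p = 0.037). The Csrp3 call was lost without control mouse 2 or 3 or 3 h mouse 1, 2 or 3 (−1.71 to −1.14). Apoe, the apolipoprotein gene that was most abundant in the stem and early progenitor list, was lower by less than the fold limit: 1878, 2227 and 2205 CPM in controls, and 1073, 1118, 1308 and 2088 CPM at 3 h (−0.59, adjusted p = 0.0018 in the 3-cell fit).

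Few genes of the erythroid lists were called at 3 h. Over all genes tested in the 3-cell fit 4.35% were called higher and 0.494% lower, and few calls in lists this short lie near those shares. The counts that follow therefore do not set the erythroid lists apart. None of 16 tested erythroid transcription factors was called at 3 h in either direction (median log2 fold change −0.39, and −0.24 over 15 genes in the 3-cell fit), nor were any of 10 erythropoietin and Kit signalling, 9 iron and 8 heme synthesis genes. At an unadjusted p under 0.05 there were 2 of the factors and 1 gene of each of the other 3 lists, and DESeq2 called 0 in all 4. Gata1 was at 119, 137 and 220 CPM in controls and at 52.4, 124, 134 and 132 CPM at 3 h (−0.37, adjusted p = 0.75). Myb, which keeps progenitors dividing, was at 704, 716 and 701 CPM and then at 340, 386, 496 and 608 CPM. All 4 of these mice lay below every control, yet the Myb difference was under the fold limit (−0.59 ± 0.18, adjusted p = 0.028 in the 3-cell fit, and −0.51, adjusted p = 0.36 in the 10-cell fit). Lmo2, Kit and Epor did not pass the test in either fit. In the red cell membrane and skeleton list 0 of 11 were called in the 10-cell fit (1 at an unadjusted p under 0.05, 0 by DESeq2), with a median log2 fold change of −0.63, and 1 of 9 was lower in the 3-cell fit, with a median of −0.26. That gene was Aqp1, a water channel, at 270, 297 and 208 CPM and at 157, 110, 121 and 148 CPM at 3 h, with all 4 mice below every control (−1.02 ± 0.26, adjusted p = 0.0052). It was under the fold limit without control mouse 2 (−0.88), 3 h mouse 2 (−0.96) or 3 h mouse 3 (−0.97). Of the 3239 genes tested in the 3-cell fit, 179 had every 3 h mouse below every control, as Adgrg1, Myb and Aqp1 had. In erythroid cells with any number of later genes, where 0.657% of 8370 genes were called lower at 3 h, 0.466% at 24 h and 0.239% at 72 h, 4 of 4 tested globins were lower at each time (medians −3.75, −3.38 and −2.72). The mix of stages in those sums moved with the groups, with 4.78 late cells for each early cell in the control library and 2.74, 3.08 and 2.25 at 3, 24 and 72 h. The globin gene Hba-a1 was at 335 CPM in cells with all 4 later genes and at 0 to 7.51 CPM in cells with fewer, and the part of this shift in the globin values was not tested. No globin passed the filter in the early cells. Of the red cell membrane list 2 of 19, and of the heme synthesis list 1 of 16, were lower at 3 h in those sums. Of the other lists, glycolysis and cholesterol synthesis had no called gene at 3 h (0 of 12 and 0 of 4, with 4 and 0 at an unadjusted p under 0.05, and 0 by DESeq2). Immediate-early and handling genes, which respond to tissue handling, had 12 of 13 tested members below 0 at 3 h and a median of −1.14 in the 10-cell fit, with 0 called (5 at an unadjusted p under 0.05, 0 by DESeq2), and a median of −0.33 over 8 in the 3-cell fit, and their part in the falls was not tested. Daxx, of the cell death list, was called in the 3-cell fit alone, at 37.7, 33 and 35.7 CPM in controls and 105, 124, 80.5 and 132 CPM at 3 h (1.55 ± 0.45, adjusted p = 0.021). It was not called without control mouse 2 or 3 h mouse 2 or 4 (adjusted p = 0.077, 0.076 and 0.067).

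**Figure D3:**
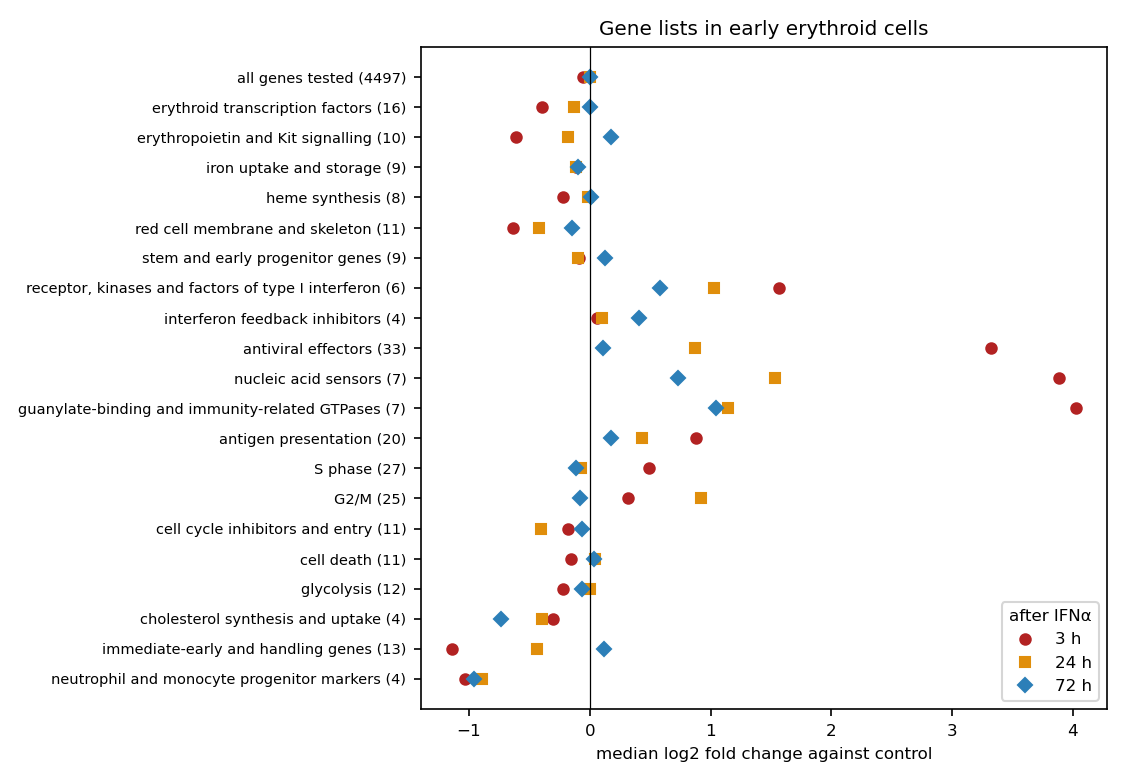
Median log2 fold change against control for each gene list in early erythroid cells (10-cell fit), with 3, 24 and 72 h as separate points and the number of tested genes in brackets. The interferon lists lie at 0.88 or more at 3 h, except feedback inhibitors at 0.06, and the erythroid lists stay between −0.63 and 0.17 at all times.

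By 24 h most interferon genes were no longer called. In the 10-cell fit 21 genes were higher (0.467%) and 9 lower (0.2%), and in the 3-cell fit 18 were higher (0.556%) and 3 lower (0.0926%). Of the interferon lists 6 of 77 genes were still called (4 of 70 in the 3-cell fit), with a median log2 fold change of 0.78. In the deeper sums of erythroid cells with any number of later genes, 77, 44 and 3 of 102 interferon genes were higher at 3, 24 and 72 h, where 4.03, 1.36 and 0.753% of 8370 genes were. Ifitm3 was at 666, 685, 677 and 734 CPM, above all controls (1.48 ± 0.18, adjusted p = 3.1e-07). Irf7 was at 76.1, 125, 62.8 and 56.1 CPM, a 15.6-fold ratio to control with a counting interval of 5.21 to 77.1 (adjusted p = 0.00047), and was detected in 31 of 62 thinned cells. Bst2 was at 247, 263, 447 and 346 CPM (1.02 ± 0.22, adjusted p = 0.0067), Irf2 at 109, 87.8, 76.8 and 73.2 CPM (1.60 ± 0.39, adjusted p = 0.02) and the Golgi chaperone gene Rtp4 at 105, 117, 76.8 and 82.9 CPM (1.82 ± 0.48, adjusted p = 0.033). Isg15 was at 95.2, 113, 34.9 and 90.2 CPM beside 44.0, 155 and 17.8 CPM in controls and was not called (0.13, adjusted p = 0.96). Without control mouse 2, the highest, the value was 2.48 (adjusted p = 0.28), and without control mouse 3, the lowest, it was −0.61 (adjusted p = 0.79). It was called with the gate after thinning (1.36), with 4 other genes (1.46) and with any number of later genes (2.36). Of the unthinned cells 38 of 62 held Isg15 at 24 h and 12 of 37 in the control, and of the thinned cells 20 of 62 and 10 of 35. At 24 h Bst2 was under the fold limit without control mouse 2 (0.86) or 24 h mouse 4 (0.84), and Irf2 and Rtp4 were not called without control mouse 2 or 3 or 24 h mouse 2, nor Irf2 without 24 h mouse 1.

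Of the antigen presentation list 0 of 20 genes were called at 24 h (0 of 18 in the 3-cell fit, with 11 and 12 at an unadjusted p under 0.05, and 0 by DESeq2), and its median log2 fold change was 0.43 (0.51 in the 3-cell fit). Class I genes of it passed the adjusted p but not the fold limit. H2-K1 was at 861, 913 and 1165 CPM in controls and at 1566, 1561, 1486 and 1353 CPM at 24 h (0.55 ± 0.12, adjusted p = 0.0089). B2m, the light chain, was at 1520, 1577 and 1676 CPM and at 2456, 2142, 2512 and 1897 CPM (0.43 ± 0.10, adjusted p = 0.018), and H2-D1 at 1690, 1596, 1549 and 1373 CPM (0.50 ± 0.12, adjusted p = 0.013). In each of the 3 genes every 24 h mouse lay above every control mouse, as in 232 of the 3239 genes tested in the 3-cell fit.

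At 24 h a few mitotic genes were called higher. All 25 tested G2/M genes had a positive log2 fold change in the 10-cell fit, with a median of 0.92, and 3 were called (2 of 21 and a median of 0.63 in the 3-cell fit). Ube2c, the ubiquitin-conjugating enzyme of the anaphase-promoting complex, was at 62.8, 89.4 and 17.8 CPM in controls and at 309, 341, 216 and 119 CPM at 24 h (2.15 ± 0.44 and 2.05 ± 0.39, adjusted p = 0.0029 and 0.00059). Nusap1, which bundles spindle microtubules, was at 56.5, 33 and 11.9 CPM and at 114, 113, 174 and 78.0 CPM (2.09, adjusted p = 0.0046), and Cenpf was called in the 10-cell fit alone. DESeq2 called 0 of the list in either fit. Without control mouse 3 none of these 3 was called in the 10-cell fit (1.50 for Ube2c, 1.60 for Nusap1 and 1.17 for Cenpf, adjusted p = 0.18, 0.20 and 0.45), while without control mouse 2 the values were 3.80, 3.04 and 2.68. Ube2c and Cenpf were not called without 24 h mouse 2 either, nor Cenpf without control mouse 2. The most abundant members differed less: Cks2 was at 515, 513 and 392 CPM and then at 619, 550, 461 and 563 CPM (0.35, adjusted p = 0.42). Summed over the list without TMM factors, G2/M levels were 2668, 2466 and 1358 CPM in control mice and 3606, 3541, 3116 and 2941 CPM at 24 h. At 3 h these sums were 567, 1572, 2196 and 611 CPM and at 72 h 1309, 1413, 1566 and 2215 CPM. At 3 h the sums of 2 mice lay below all controls and those of the other 2 within them, and the median log2 fold change of the list was 0.31 in the 10-cell and −0.57 in the 3-cell fit, with 0 of 25 and 1 of 21 genes called. That gene was Mki67, a marker of dividing cells, at 239, 108 and 143 CPM in controls and 0, 27.6, 107 and 0 CPM at 3 h. It was lower in the 3-cell fit (−1.51 ± 0.45, adjusted p = 0.024), not called in the 10-cell fit (−0.20, adjusted p = 0.91). Without 3 h mouse 3 the value was −3.71, and without control mouse 1 or 3 h mouse 1, 2 or 4 it was not called (adjusted p = 0.20, 0.078, 0.12 and 0.10). The direction at 24 h depended on the gate. With any number of later genes 6 of 39 tested G2/M genes were positive at 24 h, with a median log2 fold change of −0.26. Of these 39, 0 were called and 18 had an unadjusted p under 0.05. Nusap1 turned negative there and with the gate on 4 other genes. When the gate was applied after thinning, the Ube2c value turned to −0.74 and that of Cenpf to −0.22, with 4 other genes to −0.65 and −0.46, and with any number of later genes to −0.89 (adjusted p = 0.00034) and −0.29.

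Hist1h2ap and Hist1h2ae, replication-dependent histone genes of a class whose transcripts mostly lack a poly(A) tail, were called higher at 3, 24 and 72 h in both fits. Hist1h2ap was at 25.1, 14.1 and 5.94 CPM in controls, at 78.5, 262, 516 and 65.8 CPM at 3 h, at 228, 290, 272 and 237 CPM at 24 h (4.57 ± 0.42) and at 118, 70.6, 33.6 and 73.7 CPM at 72 h. Hist1h2ae rose at 24 h from 81.7, 47.1 and 77.3 CPM to 357, 242, 258 and 290 CPM (2.26 ± 0.33, adjusted p = 1.1e-05). These genes have near-identical copies, so the counts per gene are uncertain, and both were also called higher in all kept cells. Lockd, a noncoding RNA downstream of Cdkn1b, was at 25.1, 9.42 and 11.9 CPM and at 99.9, 83.6, 90.7 and 46.3 CPM at 24 h (2.77 ± 0.57, adjusted p = 0.0031). With any number of later genes its value was 0.07, and without control mouse 2 it was not called (2.58, adjusted p = 0.12).

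Among the falls at 24 h was Gfi1b, a repressor that erythroid and megakaryocyte cells need, which was at 119, 122 and 262 CPM in controls and at 133, 62.7, 62.8 and 75.6 CPM at 24 h (−1.15 ± 0.28 and −1.04 ± 0.28, adjusted p = 0.02 and 0.029). It was the only one of 16 tested erythroid factors called at that time in the 10-cell fit, 1 mouse overlapped the controls, and with any number of later genes the value was −0.15. Without control mouse 3, which held the 262 CPM, the Gfi1b value was −0.56 (adjusted p = 0.75), without 24 h mouse 2 −0.93 (adjusted p = 0.22) and without 24 h mouse 4 −1.09 (adjusted p = 0.058). Ikzf2 (Helios), a zinc finger factor of stem cells and lymphocytes, was at 87.9, 108 and 119 CPM and at 47.6, 43.9, 20.9 and 46.3 CPM (−1.28 and −1.30, adjusted p = 0.031 and 0.025). Commd2 fell by 1.10 and 1.05 on the log2 scale (adjusted p = 0.033 and 0.027). Neither Ikzf2 nor Commd2 was called in the 10-cell fit without control mouse 2 or 3 or 24 h mouse 2 (−0.84 for Commd2 without the last), nor Ikzf2 without 24 h mouse 4. The other falls, Hspa1a, Nfya, Mrps6, Lars2, Pycrl and Drosha, were called in the 10-cell fit alone, and none of them without control mouse 3. Hspa1a, a heat shock gene that also responds to tissue handling, was at 31.4, 51.8 and 125 CPM in controls, at 0 in all 4 mice at 3 h and at 0, 0, 20.9 and 21.9 CPM at 24 h.

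**Figure D4:**
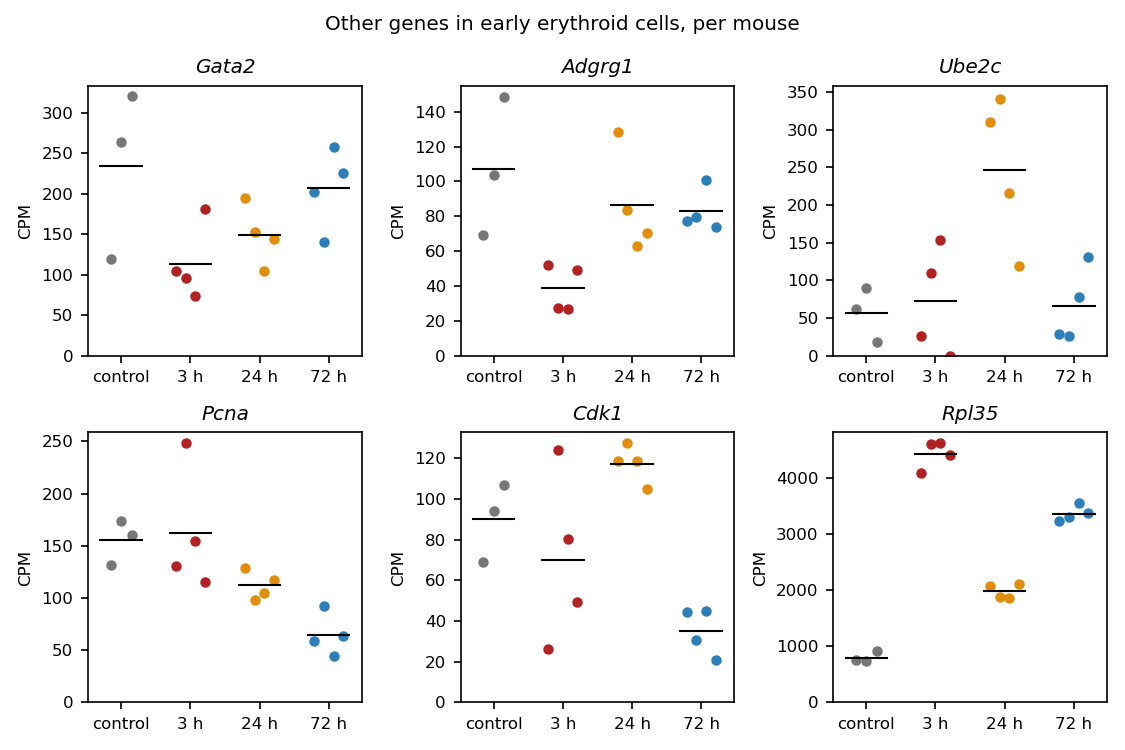
CPM of 6 further genes in early erythroid cells by mouse on linear axes, with points for mice and lines for group means. Gata2 and Adgrg1 are low at 3 h, Ube2c is high at 24 h, Pcna and Cdk1 are low at 72 h, and Rpl35 is at 739 to 909 CPM in control mice and at 1870 CPM or more in every treated mouse.

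At 72 h few interferon genes differed from control by the test. In the 10-cell fit 15 genes were higher (0.334%) and 8 lower (0.178%), and in the 3-cell fit 23 were higher (0.71%) and 8 lower (0.247%). None of the 77 tested interferon genes was called in the 10-cell fit (11 at an unadjusted p under 0.05, and 0 by DESeq2), and their median log2 fold change was 0.30. The median was 1.04 over the 7 guanylate-binding and immunity-related GTPases (6 positive, 3 at an unadjusted p under 0.05), 0.73 over the sensors and 0.11 over the antiviral effectors. The 3-cell medians were 0.14 over the GTPases (4 of 7 positive, 1 at an unadjusted p under 0.05) and 0.12 over the sensors (4 of 7 positive). In the 3-cell fit 1 of 70 was called, the class I gene H2-Q4, at 44.0, 56.5 and 53.5 CPM in controls and 122, 83.8, 78.4 and 132 CPM at 72 h (1.05 ± 0.30, adjusted p = 0.049). The H2-Q4 call was lost in 11 of the 15 fits that leave out 1 mouse, with values of 0.94 to 1.14. Ifitm3 was at 199, 203, 269 and 295 CPM, within the control range of 184 to 311 CPM, and Bst2 at 170, 207, 134 and 195 CPM.

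Of the 15 genes higher at 72 h, 11 were also called higher in all kept cells, where 205 of 12042 tested genes were. Rpl35 was higher by 2.01 ± 0.11 on the log2 scale at 72 h, against 2.50 ± 0.13 at 3 h and 1.32 ± 0.11 at 24 h. Lsm7, a subunit of the ring that protects RNA 3′ ends, was at 50.3, 33 and 41.6 CPM in controls and at 203, 207, 146 and 137 CPM at 72 h (2.32 ± 0.34). Gstp1, a glutathione transferase, was at 18.8, 18.8 and 11.9 CPM in controls, at 262, 304, 248 and 132 CPM at 3 h and at 62.7, 83.8, 101 and 47.4 CPM at 72 h. Gm10076 and Gm10020, both unnamed loci, were also higher, as were Mysm1 and Zc3h14 in the 10-cell fit alone. Rpl35, Lsm7, Gm10076, Gm10020, Gstp1 and the histone genes were among the 11, and Mysm1 and Zc3h14 were not. In the 10-cell fit Gm10020 was not called without control mouse 2, Gstp1 and Zc3h14 without control mouse 2 or 3 or 1 of the 72 h mice, and Mysm1 without any 1 of 8 mice.

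Among the falls at 72 h were 2 cell cycle genes, with 1 of 27 tested S phase genes (median −0.11) and 1 of 25 G2/M genes (median −0.08) called. The 3-cell fit called 1 of 24 (median −0.10) and 1 of 21 (median −0.45). Pcna, the sliding clamp of DNA polymerase, was at 132, 174 and 160 CPM in control mice and at 59.0, 92.6, 44.8 and 63.2 CPM at 72 h (−1.23 ± 0.28 and −1.20 ± 0.26, adjusted p = 0.0079 and 0.0032). Cdk1, the kinase of mitotic entry, was at 69.1, 94.2 and 107 CPM and at 44.3, 30.9, 44.8 and 21.1 CPM (−1.57 ± 0.37 and −1.37 ± 0.34, adjusted p = 0.012 and 0.014). In both genes every 72 h mouse lay below every control, as in 145 of the 3239 genes tested in the 3-cell fit. With any number of later genes Pcna was still lower, though by less than the fold limit (−0.83, adjusted p = 7.4e-07), and after thinning before the gate Cdk1 was at −0.66 (adjusted p = 0.13). Nme2, a nucleoside diphosphate kinase, fell from 56.5, 80.0 and 89.2 CPM to 14.8, 17.6, 33.6 and 21.1 CPM (−2.24 ± 0.44, adjusted p = 0.0013), with counts that may be shared with its neighbour Nme1. Rnaset2b, whose near-identical copy Rnaset2a makes its counts uncertain, fell from 94.2, 104 and 95.1 CPM to 18.4, 22.1, 56.0 and 36.8 CPM. Wdr89 fell by 1.11 and 1.12 on the log2 scale. Nme2, Rnaset2b and Wdr89 were also called lower in all kept cells, and Pcna and Cdk1 were not. Hspa1a, Lars2 and Igfbp4 were called in the 10-cell fit alone. Pcna, Cdk1, Rnaset2b, Wdr89 and these 3 were not called there without control mouse 2 (adjusted p = 0.21, 0.11, 0.067 and 0.067 for the first 4), nor Pcna and Wdr89 without 72 h mouse 1 or Cdk1 without control mouse 3 or 72 h mouse 2.

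Whether early erythroid cells answered IFNα differently from other cells of the same mice was asked with an interaction test that kept the mouse as a block. Against all kept cells outside the erythroid gates, the 3 h log2 change was more positive in early erythroid cells for 6 of 12022 genes (0.0499%) and more negative for 6 (0.0499%), or 4 (0.0373%) and 7 (0.0654%) in the 3-cell fit. Gata2 was among the latter: the difference of the log2 changes was −2.12 ± 0.42 (adjusted p = 0.00086), and −1.63 ± 0.30 in the 3-cell fit (adjusted p = 0.00017). With the same UMIs in both populations neither passed the test (−1.89 and −1.59, adjusted p = 0.55 and 0.22), nor did the 3-cell value without control mouse 3 (−1.37, adjusted p = 0.054). Outside the erythroid gates Gata2 was at 90.7 ± 24.7 CPM in control mice and 92.3 ± 18.6 CPM at 3 h (SD, n = 4 each, without TMM factors). In megakaryocyte-gated cells it was at 177 ± 13.2 and 169 ± 28.8 CPM, and in late erythroid cells at 48.9 ± 12.2 and 31.3 ± 21.1 CPM. The Gata2 difference was not called against either, at −1.81 ± 0.46 against megakaryocyte-gated cells (adjusted p = 0.17) and −0.58 ± 0.67 against late erythroid cells (adjusted p = 0.96).

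Over the 119 tested interferon genes the median difference in 3 h change between early erythroid cells and cells outside the gates was 0.14, beside −0.18 over all genes (0.09 beside −0.24 in the 3-cell fit), and 0 were called larger and 3 smaller (1 and 2 in the 3-cell fit). The 3 h change of Isg15 was smaller in early erythroid cells, by −1.97 ± 0.33 against cells outside the gates (−1.33 ± 0.29 in the 3-cell fit) and by −2.95 against late erythroid cells (adjusted p = 0.0056). This rested on control mouse 2: without it the differences were 0.72 and −0.62 (adjusted p = 1 and 0.97), and 0.26 against cells outside the gates in the 3-cell fit (adjusted p = 0.99). Its level at 3 h was nevertheless the higher one, 2342 ± 626 CPM (n = 4) against 1528 ± 116 CPM outside the gates, and its control level was 69.6 ± 70.5 CPM (n = 3) against 35.7 ± 25.9 CPM. Isg20, an exonuclease, had differences of −1.84 and −1.60 in the 10-cell and 3-cell fits. In the other direction, Ifi47, an immunity-related GTPase, rose more than outside the gates by 1.85 in the 10-cell fit, and Plac8 by 1.26 in the 3-cell fit, where it went from 1047 ± 261 to 3058 ± 902 CPM in early erythroid cells and from 3272 ± 146 to 3600 ± 358 CPM outside. Ube2c differed by 2.93 ± 0.49, with 54.6 ± 35.3 and 62.9 ± 61.9 CPM in early erythroid cells and 176 ± 21.7 and 86.3 ± 19.3 CPM outside. These means in early erythroid cells are over mice with at least 3 cells, and the change of Ube2c there was 1.42 ± 0.70 in the 10-cell fit (adjusted p = 0.39) and 0.72 ± 0.59 in the 3-cell fit (adjusted p = 0.60). The Ube2c difference was 1.66 in the 3-cell fit. It was not called there without 3 h mouse 3 (0.43, adjusted p = 0.90) or control mouse 3 (1.35, adjusted p = 0.44), nor with the same UMIs in both populations (2.08, adjusted p = 0.16). In the 10-cell fit it was 4.49 without control mouse 2 and 2.38 without control mouse 3.

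Against late erythroid cells the 3 h changes differed in 0 genes in one direction and in 2 of 8099 in the other (0.0247%), Isg15 and Cpne2, and in the 3-cell fit in 0 of 6062, where 372 genes had an unadjusted p under 0.05. Against megakaryocyte-gated cells, the 3 h change was more positive for 3 genes (0.0346%), Ifitm3, Ifi47 and Ube2c, and more negative for 1 (0.0115%), Isg15, which at 0.05 without control mouse 2 was not called (adjusted p = 1). Ube2c was at 444 ± 133 and 229 ± 70.3 CPM in megakaryocyte-gated cells. Its difference of 2.95 was 4.68 without control mouse 2, and without control mouse 3 it was 2.20 and not called. The 3-cell fit had 4 genes with a more positive (0.0576%) and 0 with a more negative change. Of the 4, Car1 is a gene of the gate and is given as a description only, which leaves Ifitm3, Ifi47 and Plac8. Ifitm3 was larger in early erythroid cells by 1.47 and 1.54 in these fits, with 250 ± 69.8 CPM in control early erythroid cells against 772 ± 90.6 CPM in control megakaryocyte-gated cells, and 2909 ± 535 against 3058 ± 267 CPM at 3 h.

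The share of early erythroid cells overlapped between control and treated mice at each time. It was 0.967, 1.83 and 1.70% of kept cells in the 3 control mice with at least 100 cells, 0.909, 1.64, 1.79 and 1.99% at 3 h, 1.79, 1.77, 1.30 and 2.18% at 24 h and 2.97, 3.89, 1.31 and 2.62% at 72 h. The means were 1.5 ± 0.465, 1.58 ± 0.471, 1.76 ± 0.362 and 2.69 ± 1.07% (SD). Two-sided exact permutation tests gave p = 0.857, 0.457 and 0.171, and with 3 mice against 4 the smallest possible p is 0.0571, so a threshold of 0.05 could not be reached. With the control mouse of 1 early cell included, the exact permutation test of 4 mice against 4 gave p = 0.857, 0.429 and 0.114 (smallest possible 0.0286). At 72 h, 3 of the 4 mice lay above all controls. Counted with any number of later genes, erythroid cells made up 8.65% of kept cells in control mice and 6.0% at 3 h, with all 3 h mice below all controls (exact permutation p = 0.0571), and 7.45 and 8.71% at 24 and 72 h. After thinning to 8000 UMIs the early share was 2.43% in control mice and 1.67, 2.03 and 3.09% at 3, 24 and 72 h. The 72 h mice were then at 2.92, 2.93, 2.42 and 4.12%, beside 1.29, 3.23 and 2.77% in the control mice.

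**Figure D5:**
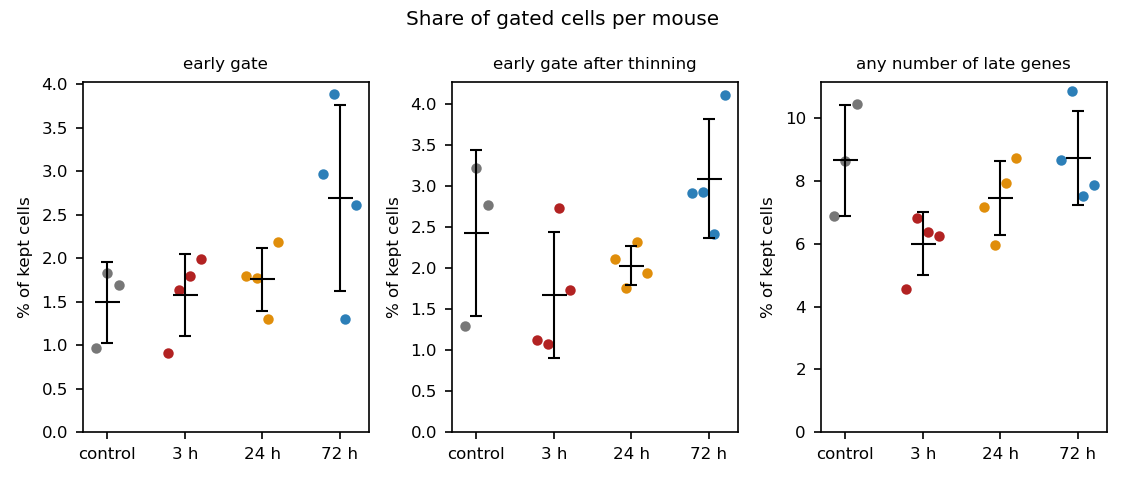
Percent of kept cells per mouse under 3 gates (early erythroid as used here, early erythroid after thinning, and any number of later genes), by time point. Points are mice, and bars show mean ± SD. Early erythroid shares overlap between control and each treated group. In the gate as used here 3 of 4 mice at 72 h lie above the controls. After thinning the 72 h mice are at 2.92, 2.93, 2.42 and 4.12%, and the highest control mouse is at 3.23%.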

How the data were processed

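The authors deposited gene by cell UMI count matrices and hashtag calls for 4 libraries (10x Genomics 3′ v3.1, super-loaded, Cell Ranger 3.1.0, mm10, Seurat, per the labels and the study's methods). The deposited counts are raw, whole UMIs. Cells called as multiplets or without a hashtag, above 5% mitochondrial counts or under 700 genes were left out, and no further doublet caller was run. Counts of the gated cells were summed per mouse (hashtag), and 1 control mouse with 1 cell entered no fit.

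Sums were fitted with edgeR 4.0.16 (R 4.3.3; filterByExpr, TMM, quasi-likelihood test, all 4 groups in 1 fit, Benjamini-Hochberg over all genes). Interactions kept the mouse as a block. For shares, exact permutation tests were two-sided (scipy 1.17.1). DESeq2 1.42.0 and other gates, filters, scalings and mice left out were alternatives, and the scripts were tested on simulated data. In a simulated 3 h comparison the 10-cell fit recovered 38% of 2-fold and 94% of 4-fold changes, with 15 false calls among 147. The 3-cell fit recovered 53% and 100%, with 6 false calls among 159. The changed genes were drawn from well-expressed genes alone, above the level from which genes were named. Every gene had the same spread between mice (a common dispersion of 0.00661 in the 10-cell and 0.00878 in the 3-cell fit). Recovery and false calls for weaker or more variable genes were not measured. Intervals are exact at 95% and cover counting error only.

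Members and lists were chosen with earlier results of these data known. Named genes were the 8 largest rises and 8 largest falls called at each time with a mean of at least 20 CPM and no overlap of the mice in the fit, and, from each list, the 3 of highest level and the 3 of smallest adjusted p. The 5 largest interactions in each direction were named likewise. Other genes (among them Gata1, Plac8, Rnf213, Daxx, Psmb8, Cenpf and Mki67) were named after their values were seen. Promoters came from RefSeq (GRCm38.p6), with 100 of 126 genes matched.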

Additional observations from a re-analysis of the deposited data

Results flagged for a closer look

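In groups of 4 mice, 11 of 111 groups looked at had a sample far from the other 3 by Dixon's test. Chance gives this in about 1 of 20 separate groups of normally distributed values. The groups here share mice, some genes were chosen after their values were seen, and some groups held 3 values of 0. The 11 can therefore not be set against that rate. At 3 h, mouse 1 held 52.4 CPM of Gata1 (next 124) and 1126 CPM of Ifit1 (next 607), mouse 3 held 282 CPM of Rsad2 (next 469), and mouse 4 held 1167 CPM of the immunoproteasome gene Psmb8 (next 872). At 24 h, mouse 3 held 20.9 CPM of Ikzf2 (next 43.9) and 97.7 CPM of Lars2 (next 43.9), and the S phase list of mouse 1 summed to 2020 CPM (next 2603). At 72 h, mouse 4 held 26.3 CPM of Hspa1a and 63.2 CPM of Ifit1, both at 0 in the others. In the same group 1 mouse held 3.27 CPM of island macrophage markers (1 UMI, of C1qb), where the others had none. Basophil and mast cell progenitor markers summed to 428 CPM in mouse 3 at 72 h (next 35.0), mostly from Cpa3, with Cma1 at 0. This mouse had 8 early erythroid cells and entered the 3-cell fit only.

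The change at 3 h differed between populations of the same mice, by the test of the difference itself, for 18 values in the 10-cell fit, in which 3 h is 1 mouse. Against all kept cells outside the erythroid gates, Ube2c (2.93), the S phase gene 2810417H13Rik (2.14), Ifi47 (1.85), the metallothionein gene Mt1 (1.41), the histone gene Hist1h1b (1.24) and the chaperone gene Hspa5 (1.03) had the more positive change in early erythroid cells. Gata2 (−2.12), Gm15915 (−2.10), Isg15 (−1.97), Ctla2a (−1.87), Isg20 (−1.84) and Ifitm1 (−1.02) had the more negative one. Against late erythroid cells Isg15 (−2.95) and Cpne2 (−2.92) had the more negative change. Against megakaryocyte-gated cells Ube2c (2.95), Ifi47 (2.71) and Ifitm3 (1.47) had the more positive and Isg15 (−2.01) the more negative change. None of the 3 Isg15 values was called without control mouse 2 (0.72, −0.62 and 0.05). In the 3-cell fit, with 4 mice at 3 h, Ube2c, Mt1, Gata2, Gm15915, Isg15 and Isg20 remained called against the cells outside the erythroid gates, 0 of these against late erythroid cells, and Ifitm3 and Ifi47 against megakaryocyte-gated cells.

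Cells outside the analysis carried the response too. At 3 h, 1 cell without a hashtag call fell in the early erythroid gate with 2556 CPM of Isg15 (26 UMIs), against 0 of 4108 UMIs in 1 such control cell, and 1 multiplet with 7984 CPM (61 UMIs), with no control multiplet in the gate.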

How the results depend on the processing

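Counts of called genes were compared with 136, 30 and 23 at 3, 24 and 72 h in the 10-cell fit and 157, 21 and 31 in the 3-cell fit. DESeq2's Wald test called 74, 3 and 4 genes, and 12 and 15 at 24 and 72 h in the 3-cell fit, and the likelihood ratio test 33 at 24 h in the 3-cell fit and 43 at 72 h in the 10-cell fit. Thinning before the gate gave 205 at 3 h and 54 at 72 h, the gate on 4 other genes 493, 82 and 129, any number of later genes (chosen after seeing the data) 392, 153 and 83, and equal UMIs per mouse 65, 4 and 5 in the 3-cell fit. With the hashtag number as a replicate block 10 genes were called at 24 h and 10 at 72 h, and samples with the same number did not deviate together (median correlation −0.011 over 21 pairs, 0 over 0.1). For interactions, equal UMIs gave 4 (10-cell) and 3 (3-cell) genes against cells outside the gates and 1 against late erythroid cells, fits with no replicate block 1, 0 and 2 against the 3 populations, library size alone 1 against late and 2 against megakaryocyte-gated cells, no filter 4 and at least 3 cells 0 against late erythroid cells. The share differences in percentage points turned to −0.759 at 3 h and −0.396 at 24 h after thinning, −2.65 and −1.20 with any number of later genes, and −2.16 at 3 h with 4 other genes. Leaving out 1 mouse gave 110 to 153, 12 to 42 and 9 to 30 genes in the 10-cell fit (fewest at 24 h without control 3 and at 72 h without control 2), and 141 to 162, 14 to 24 and 17 to 34 in the 3-cell fit. It gave 11 to 14 interactions against cells outside the gates, 1 to 3 against late and 2 to 5 against megakaryocyte-gated cells, with 6 to 16, 0 to 3 and 3 to 11 in the 3-cell fit, and share differences of −0.182 to 0.309, −0.00203 to 0.431 and 0.799 to 1.66. Library size alone moved the 3 h median log2 fold change from −0.05 to −0.20 and the 3 h calls to 104 higher and 22 lower (120 and 46 in the 3-cell fit), and the 72 h calls to 9 and 11 (16 and 15). Genes that turned were, with 4 other genes in the gate, Golm1 (0.32), Nat6 (0.26), Gm15915 (0.041), Ube2c (−0.65), Nusap1 (−0.026) and Cenpf (−0.46), after thinning Mxi1 (0.053), Ube2c (−0.74), Drosha (0.044) and Cenpf (−0.22), and with any number of later genes Nat6 (0.12), Cpne2 (0.38), Ube2c (−0.89), Nusap1 (−0.24), Ikzf2 (0.39), Drosha (0.053) and Cenpf (−0.29). Of 1781 values for single genes over all alternatives 1388 kept direction and side of the threshold, 362 lost the call, 14 gained it and 17 turned; the causes were not tested. A gate with none of the later genes left too few mice to be fitted. The 3 h sums held 27 cells of 4 mice in the 3-cell fit and 11 cells of 1 mouse in the 10-cell fit. That mouse could not be left out, so the 10-cell ranges of 3 h genes and of interactions above do not cover it. The gate after thinning also had 1 mouse at 3 h. Simulated 2-fold changes of well-expressed genes were recovered in 53% and 38% and 4-fold changes in 100% and 94%. The part of depth in the counts was not tested.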

Other observations

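Interferon UMIs are counted here over all interferon lists, antigen presentation included, which the 96 genes counted per cell above leave out. At 72 h the early erythroid cells held 1 cell, of mouse 4, with 352 interferon UMIs among its 11851, or 29702 CPM, against 19389 CPM in the next cell. It held 12 of the 12 Ifit1, 10 of the 10 Cxcl10, 29 of the 42 Isg15, 12 of the 14 Usp18 and 7 of the 9 Rsad2 UMIs of all 65 early erythroid cells at that time, so the 72 h values of these genes in mouse 4 rest on it.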
